A study of Homo sapiens with 3 samples.

Results

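Back-splice junctions, the reads that mark circular RNAs (circRNAs), were compared between the pancreatic ductal adenocarcinoma line SW1990 and the non-tumour pancreatic ductal epithelial line HPDE. Junctions of the 2 libraries were joined where both hg19 positions were identical, and those with 10 or more reads summed over both were kept. Junctions on the mitochondrial genome, on the ribosomal RNA scaffold and at RPPH1 on chromosome 14, the RNA component of RNase P, were left out. This kept 3512 junctions of 6257 listed for the 2 lines and of 17156 in the whole series. SW1990 cells grew in DMEM with fetal bovine serum and penicillin-streptomycin. The medium of HPDE was KSFM, a serum-free keratinocyte medium, to which human recombinant epithelial growth factor (as the labels name it), bovine pituitary extract and antibiotic-antimycotic were added. There was 1 library of total RNA per line, so line and medium cannot be told apart and no test of condition was possible. Levels are the RPM that the authors deposited (reads scaled to a total of 1 M), and every interval is a 95% exact interval. Intervals of ratios and of shares of reads cover counting error only. Those of shares of junctions treat each junction as an independent trial.

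A circRNA forms when the splicing machinery joins the end of a downstream exon to the start of an upstream exon of the same transcript. The resulting ring has no free ends and is long-lived in cells, and one gene can give several rings that use different exon ends. The RNA-binding protein QKI and base-paired intronic repeats are known to favour back-splicing, and circRNAs tend to accumulate in cells that divide slowly.

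The 2 libraries were of similar depth. SW1990 listed 3764 junctions, of which 3700 lay outside the left-out loci with 200920 reads, and HPDE listed 3370, of which 3331 lay outside them with 264156 reads. The left-out loci held 84.2% of all listed reads in SW1990 and 81.2% in HPDE. One read was worth 0.0208 RPM in SW1990 and 0.0240 RPM in HPDE. Host gene symbols came from the SW1990 table alone, and they were passed to HPDE junctions that touched SW1990 junctions of 1 host only. This named 1494 of the 3331 HPDE junctions (44.9%), which held 31.9% of the HPDE reads outside the left-out loci. HPDE junctions that touched no SW1990 junction, or those of several hosts, are therefore given by position. A host without HPDE reads is one to which no HPDE junction could be assigned, which is not the same as no circRNA from that gene. The junction names carry no strand, so overlapping genes on opposite strands could not be separated.

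The sequences below show the 2 highest junctions found in both libraries and 5 pairs of junctions that shared one back-splice end but joined it to a different partner in each line. Each has the last 15 bases of the ring's final exon in lower case and the first 15 bases of its first exon in capitals, so the step from lower case to capitals is the back-splice. They are from GENCODE release 29 transcripts, in the exons of the named host whose start and end lie as far apart as the junction's ends. Only hosts with 1 such exon pair were used, and no position of that annotation was compared with the hg19 positions. In 5 of 5 pairs the 15 bases from the shared end were identical between the partners.
IFI6, chr1:27994737-27995857, minus strand: cgctgcagagcctcgGTCTAGTGACGGAGC
HMGA1, chr6:34208514-34211295, plus strand: agacccaaaaaactgCATCCCAGCCATCAC
MISP in SW1990, chr19:756890-758726, plus strand: cctcccaggcatccgTAAGCCCAGAGGTCT
MISP in HPDE, chr19:756890-760039, plus strand: aagaaggagcaatggTAAGCCCAGAGGTCT
GCN1 in SW1990, chr12:120592774-120593234, minus strand: tcagtgggaagccagGCTCTGGTCAATGAT
GCN1 in HPDE, chr12:120592774-120593523, minus strand: tcagtgggaagccagGGGCTGATGGAACTC
RUVBL2 in SW1990, chr19:49507534-49510625, plus strand: ccagcaacagggacgGCTTCGCAAGGCATG
RUVBL2 in HPDE, chr19:49510275-49510625, plus strand: ccagcaacagggacgGCATGGCGCAGGCCC
RANGAP1 in SW1990, chr22:41670604-41677086, minus strand: aagtcggagttgaagTCTGCAGATCTCCAG
RANGAP1 in HPDE, chr22:41657450-41677086, minus strand: gcagaagcttttaggTCTGCAGATCTCCAG
CTNND1 in SW1990, chr11:57563929-57564464, plus strand: tcgtcggcgcctcagGTCAAGAAAGTAGTG
CTNND1 in HPDE, chr11:57563049-57564464, plus strand: tcgtcggcgcctcagGATCACAGTCACCTT

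Most junctions were listed in only 1 of the 2 lines. Of the 3512 kept, 777 had reads in both libraries, 1380 in SW1990 only and 1355 in HPDE only. At a fold of at least 2, with a library at 0 set to a limit of 3 reads, 1543 junctions were higher in SW1990 (43.9% of those compared) and 1605 were lower (45.7%). Of these 3148 calls, 2735 were junctions of a single list, and all 2735 were called by construction, since 10 reads against the limit of 3 always exceed a fold of 2. Their fold is against that limit and holds only if the other list lacks the junction for its read number. The junctions in both libraries held 22.5% of the kept reads of SW1990 and 18.3% of those of HPDE.

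**Figure D1:**
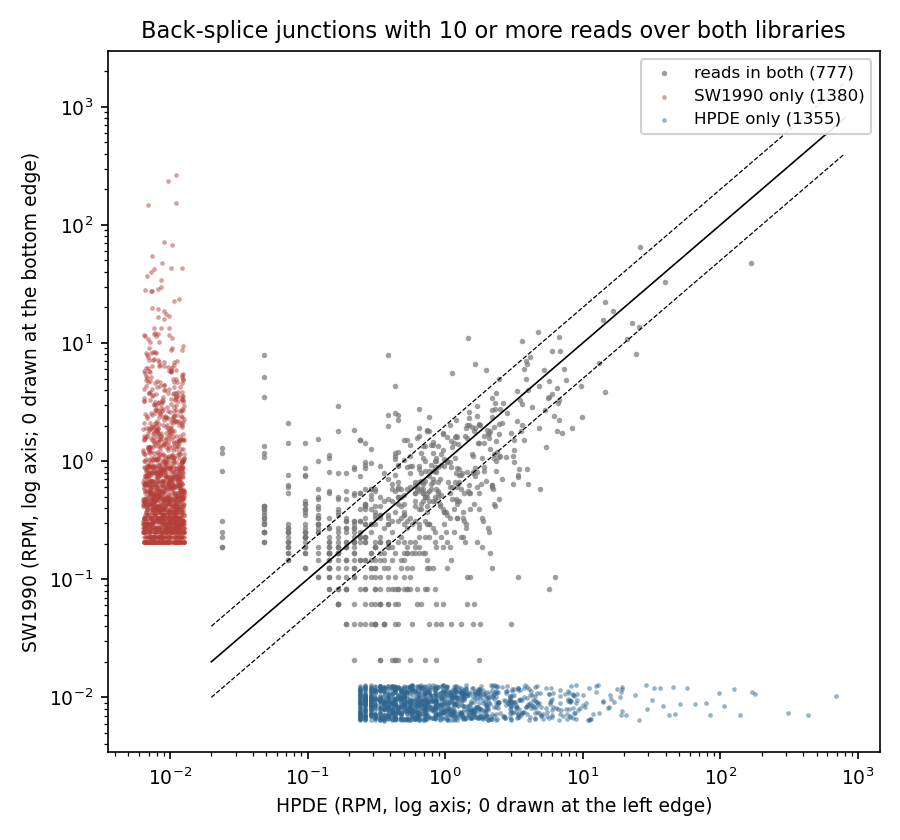
RPM of the 3512 kept junctions in HPDE (x axis) and SW1990 (y axis), both on log axes, with junctions at 0 reads drawn in a band at the edge. The 777 grey points have reads in both libraries, the solid line marks equal RPM and the dashed lines mark a fold of 2.

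Among the 777 junctions with reads in both, 364 lay within a fold of 2, 163 were higher in SW1990 (21.0%) and 250 were lower (32.2%). The median log2 fold was -0.21, with quartiles at -1.38 and 0.73. This balance depended on the scale. Scaled to the reads of all junctions outside the left-out loci, 245 were higher and 160 lower, with a median of 0.39, and with TMM factors the counts were 191 and 211. With the whole interval of the ratio beyond a fold of 2, 51 were higher (6.56%) and 107 lower (13.8%). Over all kept junctions this rule gave 1335 (38%) and 1462 (41.6%). Of the 112 junctions with at least 50 reads in each library, 82 lay within a fold of 2.

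Of the 10 most abundant junctions found in both lines, 3 differed by a fold of at least 2. IFI6, an interferon-induced mitochondrial protein, gave 6915 reads in HPDE (166 RPM) and 2271 reads in SW1990 (47.2 RPM). HPDE was 3.52-fold higher (3.35 to 3.69). HMGA1, an architectural chromatin protein, went the other way, with 3151 reads in SW1990 (65.5 RPM) and 1084 in HPDE (26.0 RPM), 2.52-fold higher in SW1990 (2.35 to 2.70). The proteasome subunit PSMA7 was at 8.08 RPM in SW1990 and 24.2 RPM in HPDE, 2.99-fold higher in HPDE (2.66 to 3.37). On the total back-splice scale PSMA7 lay within a fold of 2 (log2 -0.98). The other 7 of the 10 highest lay within a fold of 2. Among them were the RNA-binding protein HNRNPC (13.7 RPM in SW1990 and 25.7 RPM in HPDE), the PDZ scaffold GIPC1 (14.9 and 22.7 RPM), the endoplasmic reticulum protein BCAP31 (10.8 and 20.9 RPM), the lamin LMNB2 (15.5 and 14.1 RPM) and a junction with no host name at chr17:75398141-75398785 (18.5 and 16.5 RPM).

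The junctions that stood farthest above HPDE had a few HPDE reads each. In EIF4B, a translation initiation factor, the junction at chr12:53421566-53421972 had 382 reads in SW1990 and 2 in HPDE, a ratio of 165 (45.5 to 1371). In ITGB4, the integrin beta 4 subunit of hemidesmosomes, chr17:73738422-73738842 had 246 reads against 2, a ratio of 107 (29.2 to 885). In P4HB, a protein disulfide isomerase, chr17:79813018-79813462 had 384 reads against 16, a ratio of 20.8 (12.6 to 36.7). The wide intervals come from the 2 HPDE reads of the first junctions, and P4HB, with more HPDE reads, is the best measured of these. The transcriptional corepressor CTBP1 (168 reads against 2), the histone demethylase KDM1A (101 against 3), the SUMO-activating enzyme subunit SAE1 (62 against 1), the chromatin reader BRD1 (56 against 1), the dynein light intermediate chain DYNC1LI2 (142 against 7), HAGH (65 against 2), the liprin PPFIA1 (56 against 2), and the death receptor TNFRSF21 (208 against 18) were also among the 12. The host as a whole did not follow in each of these. Summed over its junctions, PPFIA1 was lower in SW1990 (56 reads against 184), and SAE1 (64 and 82), HAGH (65 and 99) and BRD1 (89 and 59) lay within a fold of 2.

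The 12 junctions farthest in the other direction had between 1 and 6 reads in SW1990. AARS, the alanyl-tRNA synthetase, gave 236 reads in HPDE and 4 in SW1990 at chr16:70294947-70296427, and HPDE was 68.1-fold higher (26.3 to 252). HAUS4, of the augmin complex of the spindle, had 125 HPDE reads against 2. RPN2, of the oligosaccharyltransferase, had 74 against 1, and the exocyst subunit EXOC7 had 142 against 5. The mitotic kinase AURKA had 75 against 2. A second AARS junction (66 against 2), PRSS12 (68 against 3), the mitochondrial threonyl-tRNA synthetase TARS2 (54 against 2), the guanine exchange factor TRIO (91 against 6), PABPC1L (60 against 3) and the kinase GALK2 (36 against 1) were also among the 12. Host sums did not always follow. Summed over junctions, RPN2 (74 HPDE reads against 56) and EXOC7 (142 against 83) lay within a fold of 2. AARS (302 against 131), AURKA (94 against 6) and PRSS12 (68 against 3) were lower in SW1990. At a shared end of RPN2, 55 of 56 SW1990 reads joined another partner, as did 91 of 95 at AARS and 19 of 21 at HAUS4.

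**Figure D2:**
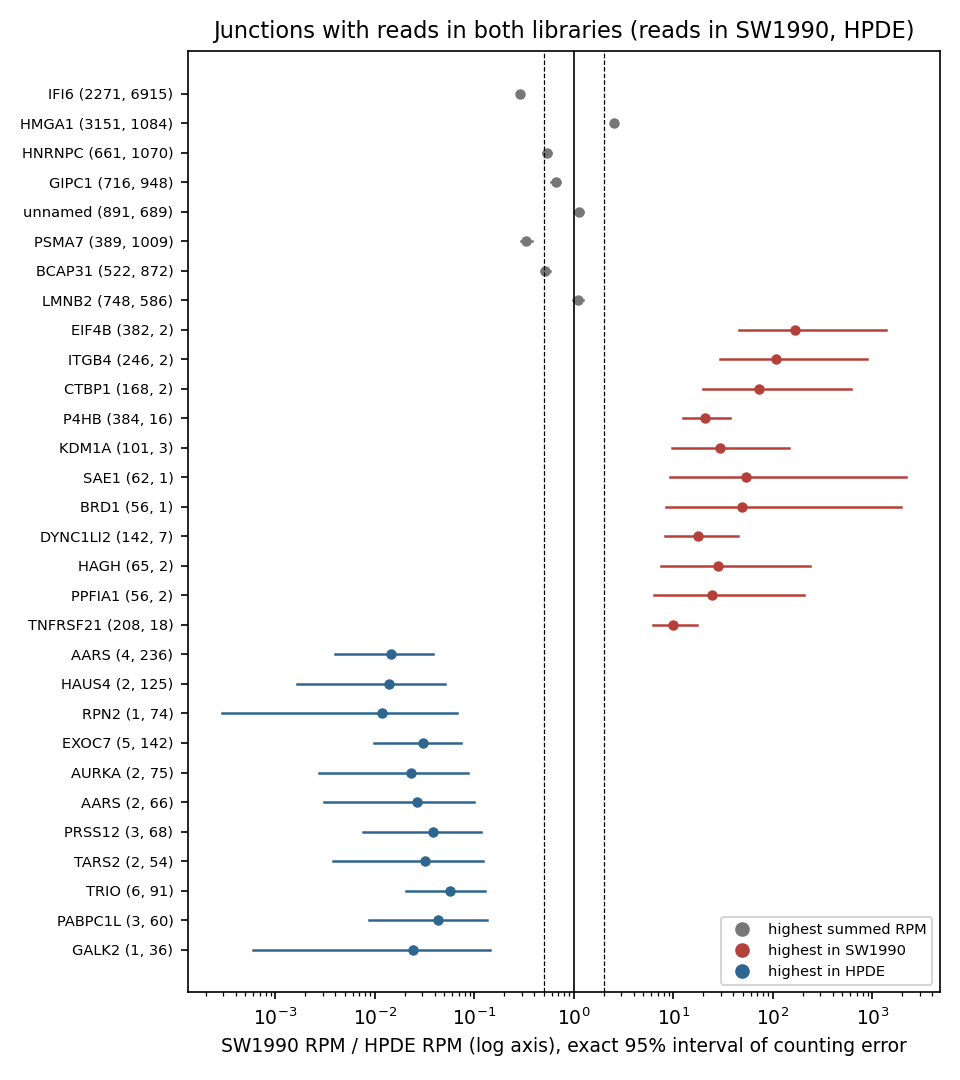
Ratio of SW1990 RPM to HPDE RPM on a log axis for 8 of the 10 junctions with the highest summed RPM (grey) and 11 of the 12 farthest from 1 in each direction (red, blue), with exact 95% intervals as bars and reads in SW1990 and HPDE in brackets. The grey ratios lie between 0.284 and 2.52, and the red and blue intervals lie wholly beyond a fold of 2.

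Several of these extreme junctions had a partner that used the same end in the other line. ITGB4 was near equal when its junctions were summed, at 10.5 RPM in SW1990 and 9.93 RPM in HPDE, a ratio of 1.06 (0.930 to 1.21). Its start at 73738422 was joined to 73738842 by 246 SW1990 reads, whereas in HPDE 352 reads joined it to 73739942. P4HB was also close in sum, at 19.7 and 17.3 RPM. Its start at 79813018 was joined to 79813462 by 384 reads in SW1990, and in HPDE by 705 reads to 79817263.

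Of the back-splice ends with 20 or more reads in each library, 174 had more than 1 partner over both lists. In 119 of them (68.4%) the partner with the largest difference took shares whose intervals did not overlap between the lines, and in 42 the shares differed by less than 10 percentage points. Ends with the same single partner in both lines were not counted, so 68.4% is not a share of all ends. Choosing the partner with the largest difference also favours intervals that do not overlap. In 58 ends the difference was complete. The 6 of these with the most reads are MISP, GCN1, RUVBL2, RANGAP1, CTNND1 and LRRC47. MISP, an actin-bundling protein of the mitotic spindle, joined its start to one end by 906 of 906 SW1990 reads (interval 99.6 to 100%) and by 0 of 861 HPDE reads (up to 0.428%). GCN1, an activator of the amino acid stress kinase GCN2, gave 227 of 227 SW1990 reads to its shorter ring and 0 of 464 HPDE reads. RUVBL2, an ATPase of chromatin remodelling complexes, gave 439 of 439 SW1990 reads to its longer ring and 0 of 171 HPDE reads. The other 3 were split in the opposite sense for the partner measured. RANGAP1, the GTPase activator of Ran, used the longer ring in 383 of 383 HPDE reads and 0 of 133 SW1990 reads. CTNND1, the p120 catenin of adherens junctions, used the longer ring in 156 of 156 HPDE reads and 0 of 193 SW1990 reads. In LRRC47 the counts were 124 of 124 and 0 of 223.

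The matched exons give the make-up of these rings. In MISP the SW1990 ring was 1 exon of 1837 bases and the HPDE ring added a second exon, for 1968 bases in all. In CTNND1 the SW1990 ring was 1 exon of 536 bases and the HPDE ring 2 exons with 689 bases. In RANGAP1 the rings held 278 bases in 2 exons (SW1990) and 653 bases in 5 exons (HPDE). These lengths take every annotated exon between the ends as kept in the ring, which back-splice reads alone do not show.

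**Figure D3:**
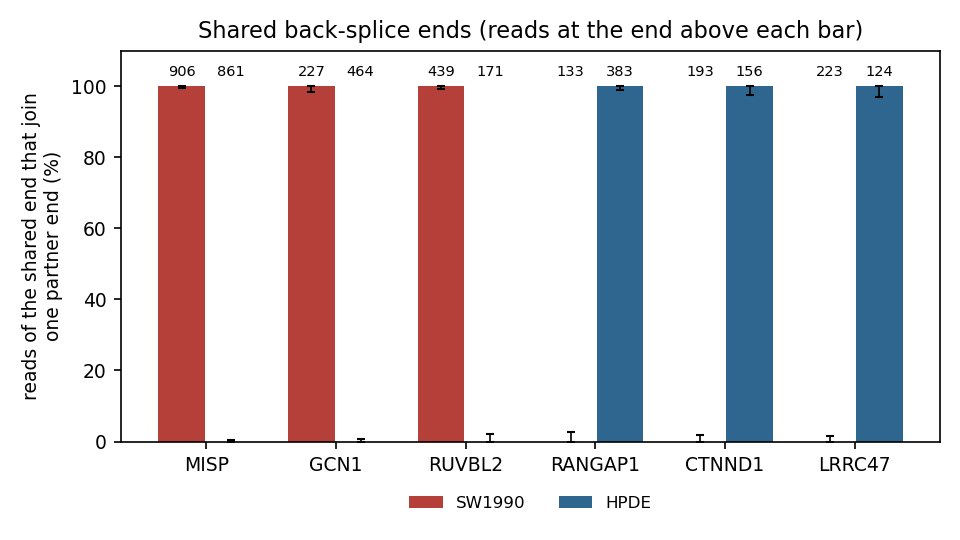
Share of the reads of a shared back-splice end that join 1 chosen partner end, in percent, for SW1990 (red) and HPDE (blue) at the 6 complete switches with the most reads; bars carry exact 95% intervals, and the reads at the end stand above each bar. Each end gives 100% in one line and 0% in the other.

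The junctions of a single list included the most abundant ones in each line. Of the 12 highest in SW1990, 5 were in histone genes and 5 spanned less than 300 bases. The span of 10 of the 12 matched no exon pair of the named host in GENCODE 29, whereas all 34 junctions with a host name that were selected among those in both libraries matched one. HIST1H4B had 12669 reads (263 RPM), HIST1H1C 11287 (234 RPM), HIST1H3H 7414 (154 RPM), HIST1H2BJ 2607 (54.2 RPM) and HIST1H1B 2306 (47.9 RPM), all without HPDE reads at that junction. DCBLD2, a membrane receptor, had 7058 reads (147 RPM), RPS2 3427 (71.2 RPM) and RPL13 3278 (68.1 RPM). Actin gamma (ACTG1, 2088 reads), lamin A/C (LMNA, 2079), pyruvate kinase (PKM, 2049) and filamin A (FLNA, 1940) followed. Histone and ribosomal protein genes have near-identical copies, so the place of these reads is uncertain.

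In HPDE the highest junction, chr17:39780459-39780716, had 28646 reads (687 RPM) and no SW1990 read. chrX:153578084-153592732 had 18157 reads (435 RPM) and lay 2232 bases from the SW1990 FLNA junction. chr12:52910891-52914092 had 12936 reads (310 RPM), chr6:26234517-26234738 had 7465 (179 RPM), chr17:39777218-39777343 had 7134 (171 RPM) and chr10:74033915-74034179 had 5822 (140 RPM). None of these overlapped a SW1990 junction, so they carry no name here. Among the named ones, HIST1H1C had 5244 and 3493 reads at a pair of junctions, GAPDH, a glycolytic enzyme, had 4414 (106 RPM), and PKM had 2719 (65.2 RPM) over 12383 bases. The remaining 2 of the 12, chr1:209795881-209797345 and chr2:20400596-20403979, had 4086 and 3255 reads. The 10 highest junctions held 28.5% of the kept reads in SW1990 and 38.9% in HPDE.

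Some hosts had back-splice reads in both lines but no junction in common. Among the 183 hosts with 50 or more reads in each library, 30 (16.4%) shared no junction, and in the median host 26.2% of the reads would have to move to another junction for the shares to match. In 74 hosts less than 10% would have to move. HIST1H1C was the largest host with no shared junction, at 234 RPM in SW1990 and 210 RPM in HPDE. GAPDH (27.8 and 106 RPM), the cytoskeletal linker PLEC (90.7 and 28.97 RPM), PKM (42.6 and 65.2 RPM), MISP (18.8 and 20.6 RPM) and the mitochondrial ATPase ATAD3A (16.1 and 15.3 RPM) were next. APLP2 of the amyloid precursor family, RUVBL2, tropomyosin TPM3 and RANGAP1 completed the 10. For HIST1H1C, PKM, MISP, ATAD3A and APLP2 the summed levels lay within a fold of 2. The HIST1H1C junctions spanned 174 bases in SW1990 and 138 and 195 bases in HPDE. The SW1990 junctions of HIST1H1C and PKM matched no exon pair, and their HPDE junctions were named by overlap alone. For these 2 hosts the reads are therefore not shown to come from rings of exons. The GAPDH junction of 4414 HPDE reads was named by overlap alone too.

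Summed over the junctions of a host, 942 hosts had 10 or more reads over both libraries and reads in each. Of these 206 were higher in SW1990 (21.9%) and 258 lower (27.4%), and 478 lay within a fold of 2. With the whole interval beyond 2 the counts were 74 (7.86%) and 102 (10.8%). A further 846 hosts had SW1990 reads only, and 60 of them had an unnamed HPDE junction within 10000 bases. ACTG1 was one, with 375 HPDE reads at 670 bases from its SW1990 junction. Over all 1788 hosts, 1052 were higher (58.8%) and 258 lower (14.4%), and by the whole interval 875 (48.9%) and 102 (5.7%). The naming from SW1990 alone tilts these counts towards SW1990. The sums of the 942 hosts also leave out HPDE junctions without a host name. Their HPDE reads can therefore be too few, which the intervals do not cover. The host farthest above HPDE was DCBLD2, with 7153 reads against 22, a ratio of 282 (186 to 450). This value rested on 1 junction of 7058 reads, which matched no exon pair. Without it DCBLD2 had 95 reads against 22, a ratio of 3.74 (2.33 to 6.25). SMARCA4, the ATPase of the BAF remodelling complex, had 163 reads against 7, a ratio of 20.2 (9.57 to 51.0). Periplakin (PPL), a linker of the cornified envelope and desmosomes, had 422 against 36, and phospholipase PLCD3 had 615 against 61. The cell cycle transcription factor MYBL2 had 263 against 28, but 35 against 28 without its largest junction, within a fold of 2. ADAP1 had 115 against 2, but an unnamed HPDE junction of 1213 reads overlapped its interval. DYNC1LI2 (142 against 8), RANBP17 (102 against 5, of which 98 in 1 junction), MAP3K14 (74 against 4), CSRNP2 (51 against 2) and ZMYND8 (78 against 5) were also among the 12. DYNC1LI2 had 1 SW1990 junction, and an unnamed HPDE junction of 14 reads lay 1013 bases from it.

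In the other direction, AP2S1, a subunit of the clathrin adaptor AP-2, had 337 reads in HPDE and 2 in SW1990, and HPDE was 195-fold higher (53.4 to 1613). The chaperone subunit PFDN2 had 523 against 16, 37.7-fold higher in HPDE (23.0 to 66.5), and TMCO3 had 534 against 31, 19.9-fold higher (13.8 to 29.6). BACH1, a repressor of heme and oxidative stress genes, had 119 against 4. The translation factor subunit EIF3H (114 against 8), AURKA (94 against 6) and the calcium channel ITPR3 (228 against 23) were also among the 12. PRSS12, YIPF6, glutathione reductase (GSR), TMEM38B and GMIP had between 30 and 68 HPDE reads against 1 to 3. AP2S1, PFDN2, EIF3H, ITPR3, PRSS12, YIPF6, TMEM38B and GMIP each had 1 HPDE junction, so their values rest on it.

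Gene lists were read over hosts with reads in both lines, against the shares of all 942 such hosts. HPDE junctions without a host name are in none of these sums. Of these 942, 21.9% were higher in SW1990, 27.4% lower and 50.7% within a fold of 2. The counts depend on the scale, and those that follow are on RPM. Of chromatin regulators 6 were higher, 4 lower and 5 within a fold of 2, with a median log2 fold of 0.51. Among the higher ones were SMARCA4, the methyltransferases EHMT1 (71 reads against 15) and KMT2C (57 against 16), the remodeller CHD2 (67 against 19) and KDM1A (111 against 25). The deacetylase HDAC1 (14 against 59) and the methyltransferase NSD1 (14 against 31) were among the lower ones. Of DNA replication and repair genes 5 were higher and 4 lower, with a median of 1.10. DNA ligase LIG1 (178 against 28), the methylation reader UHRF1 (391 against 90) and the polymerase subunit POLD1 (187 against 59) were higher. FANCL (34 against 62) and RAD54L2 (23 against 52) were lower on RPM, and neither on the total back-splice scale, where 5 of the list were higher and 1 lower. On that scale NSD1 also lay within a fold of 2, and 9 chromatin regulators were higher and 1 lower. Of cell cycle genes 3 were higher and 3 lower, and 4 lay within a fold of 2. The centrosome gene CEP128 had 43 reads against 6 and the microtubule polymerase CKAP5 50 against 7, while CEP70 had 10 against 49.

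Adhesion and cytoskeletal genes are read against the same shares of all hosts with reads in both, 21.9% higher in SW1990 and 27.4% lower. Together, 72.6% of those hosts lay within a fold of 2 or were higher in SW1990. Of the actin, myosin, filament and lamina list 5 were higher, 1 lower and 5 within a fold of 2. TPM3 (451 reads against 126), the myosin MYO18A (370 against 75), transgelin TAGLN2 (504 against 155), tensin TNS3 (100 against 29) and focal adhesion kinase PTK2 (123 against 42) were higher, and the scaffold AHNAK (25 against 98) was lower. FLNA of the actin list had no assigned HPDE junction and is not counted. An unnamed HPDE junction of 18157 reads lay 2232 bases from its SW1990 junction. Of the hemidesmosome and basement membrane list 2 were higher and 3 within. HPDE junctions without a host name are not in these counts. PLEC was 3.13-fold higher (2.94 to 3.34) and the laminin LAMA5 2.08-fold higher (1.81 to 2.39), while ITGB4, HSPG2 and LAMA3 lay within. Of the cell-cell junction list 2 were higher, 1 lower and 1 within, and NECTIN2 had 469 reads against 156. Of the matrix and protease list, MYOF was higher (245 against 79) and annexin ANXA2 lower (304 against 811), and 3 lay within.

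Growth factor receptors were split, with 2 higher, 3 lower and 2 within, beside 21.9%, 27.4% and 50.7% of all hosts with reads in both. The WNT coreceptors LRP5 (158 reads against 44) and LRP6 (72 against 22) were higher. The insulin-like growth factor receptor IGF1R (12 against 50), the TGF-beta receptor TGFBR2 (31 against 76) and the ephrin receptor EPHB4 (307 against 555) were lower. On the total back-splice scale TGFBR2 (log2 -0.90) and EPHB4 (-0.46) lay within a fold of 2, EPHB4 also with TMM (-0.81), and 3 receptors were higher and 1 lower. ERBB2 was near equal, at 5.17 and 5.11 RPM, a ratio of 1.01 (0.840 to 1.22), and EPHA2 was at 17.5 and 13.1 RPM. Of the RNA-binding and splicing list 1 was higher, 3 lower and 5 within. QKI, itself known to favour back-splicing, had 45 reads against 11, a ratio of 3.54 (1.80 to 7.60). The splicing factor RBM39 had 123 against 407 and the helicase DDX21 47 against 203.

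For the translation and endoplasmic reticulum lists, the share of all hosts with reads in both that lay within a fold of 2 was 50.7%. Of translation factors and tRNA synthetases 1 was higher (EIF4B, 382 reads against 144), 1 lower (AARS, 131 against 302) and 5 within. Of the endoplasmic reticulum list 2 were higher, 1 lower and 4 within: PDIA3 had 113 against 29 and the reticulon RTN4 283 against 83, while PDIA6 had 116 against 241. On the total back-splice scale AARS (log2 -0.81) and PDIA6 (-0.66) lay within a fold of 2. The glycolysis and interferon lists had 2 hosts each with reads in both. In glycolysis GAPDH was 3.81-fold higher in HPDE (3.58 to 4.05) and PKM lay within. The largest HPDE junction of GAPDH and the HPDE junction of PKM were named by overlap alone. In the interferon list IFI6 was lower in SW1990, and STAT3 lay within at 45 and 36 reads. Histone genes had 1 host with reads in both, HIST1H1C, and ribosomal protein genes had 2, of which RPL22 was lower in SW1990 (33 against 137). Zinc-finger genes had 4 higher, 5 lower and 6 within, and on the total back-splice scale 5 higher, 1 lower and 9 within.

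Of 24 hosts of widely reported circRNAs with reads in both, 16 lay within a fold of 2, 7 were higher in SW1990 and 1 was lower. Of all 942 hosts with reads in both, 50.7% lay within, 21.9% were higher and 27.4% lower. On the total back-splice scale 13 of the 24 lay within, 10 were higher and 1 was lower, and the calls below are on RPM. ZKSCAN1 (132 and 96 reads), ITCH (60 and 49), UBAP2 (80 and 73), RHOBTB3 (77 and 49), the long noncoding RNA gene PVT1 (230 and 239) and ZNF609 (51 and 77) were within. MBOAT2 (62 against 6), PICALM (64 against 14), ASAP1 (115 against 28), LPAR1 (159 against 58), ABCC1 (241 against 100) and PTK2 were higher. FOXK2 was at 1.02 RPM in SW1990 and 0.504 RPM in HPDE, on 49 and 21 reads, a ratio of 2.02 (1.19 to 3.55). MTO1 had 16 against 51.

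Markers of the labelled cell type were read with the same limit. Of 9 epithelial markers 6 had SW1990 reads and 3 HPDE reads, and keratins KRT8, KRT18 and KRT19 had none in either. KRT7, a ductal keratin, had 520 SW1990 reads. The epithelial splicing and adhesion genes ESRP1 (41 reads) and CDH1 (43) had SW1990 reads only, EPCAM had 38 against 7 and the grainyhead factor GRHL2 90 against 19. None of 5 basal markers had reads that could be named in either line, which for HPDE does not show that they were absent. Only 31.9% of the HPDE reads could be named, and its highest junctions carry no name. The marker counts therefore do not compare the cell identity of the lines. No reads were assigned to the 6 markers of other cells, among them PTPRC and PECAM1, and ZEB1, a repressor of epithelial genes, had 36 reads against 4.

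Junctions in both lists and in 1 list differed in span. Spans under 300 bases made up 4.50% of the junctions in both (3.16 to 6.21%), 10.3% of those in SW1990 only (8.74 to 12.01%) and 8.04% of those in HPDE only (6.65 to 9.62%). By reads the shares were 2.30%, 29.9% and 30.3%, and a few junctions carried them. The 6 short junctions of most reads held 58.8% of the short reads in SW1990 only and 90.2% in HPDE only. Without those 6 the shares were 14.9% and 4.08%. Among junctions named in the SW1990 table, the span matched an exon pair of the host in 93.6% of those in both (91.6 to 95.2%) and in 82.1% of those in SW1990 only (80.0 to 84.1%). Without spans under 300 bases the shares were 93.4 and 85.4%. A length can match by chance, and HPDE-only junctions were named too rarely for this comparison.

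The share of one list found in the other did not keep rising with reads. Over all read numbers 23.7% of the SW1990 list (22.3 to 25.1%) and 26.3% of the HPDE list (24.8 to 27.9%) were found in the other. The share reached 40.2% (34.1 to 46.6%) for SW1990 junctions of 50 to 99 reads and 25% (16.6 to 35.1%) for those of 300 or more. For HPDE the values were 35.2% (30.0 to 40.7%) and 16.8% (10.1 to 25.6%). Allowing 3 bases of difference at both ends added 3 matches to the kept SW1990-only junctions, of 1380.

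**Figure D4:**
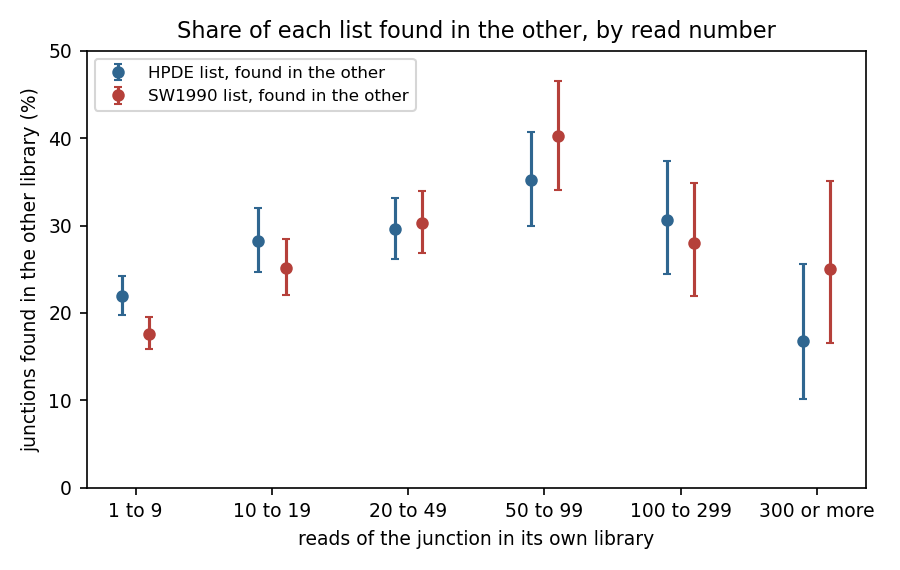
Percent of junctions of the SW1990 list (red) and the HPDE list (blue) found in the other list, by the reads of the junction in its own library, with exact 95% intervals. Both peak at 50 to 99 reads, at 40.2 and 35.2%, and are lower at 300 or more.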

How the data were processed

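Back-splice junctions of 1 SW1990 and 1 HPDE library were used. Per the submitters' processing notes, TopHat2, TopHat and HTSeq were run on hg19; the circRNA caller is not given in the sources used here. Per the file headers, HPDE values are RPM, and the deposited SW1990 table also holds a count and a host symbol. Dividing by the smallest RPM gave whole reads for 100% of values (within 0.05 reads), equal to the count in 3764 of 3764 SW1990 junctions. From the HPDE file, 1 row was not analysed here. Folds compare the authors' RPM. Intervals are exact conditional binomial (ratios) or Clopper-Pearson (shares), at the 95% level. An exact binomial test on reads, with Benjamini-Hochberg adjustment, was an alternative, as were TMM factors (edgeR 4.0.16 in R 4.3.3). Scripts used Python 3.11.15, scipy 1.17.1 and pandas 2.3.3, and were tested on simulated data.

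No hg19 annotation was at hand. SW1990 symbols were passed to HPDE junctions that were identical, shared an end with, lay within, or overlapped SW1990 junctions of 1 host only; GENCODE 29 (GRCh38) and RefSeq gave current symbols. Among the SW1990 junctions 61 had no symbol, and 14 symbols that had turned into dates were treated as no host name. An earlier naming by distances between the builds was dropped, since it compared positions across builds. Named items are the 10 shared junctions with the highest summed RPM, 12 junctions per direction with reads in both and 12 per list without, 12 hosts per direction, 10 hosts by difference in junction shares, 6 shared ends (ties by reads), and list members with 20 or more reads. Some items that this rule selects are not reported here. ITGB4 and P4HB were described beyond this after their values were seen. The exon matches, the sequences and the use of hosts with reads in both as the main host counts were also set after values had been seen. Members and lists were chosen with earlier results of these data known.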

Additional observations from a re-analysis of the deposited data

Results flagged for a closer look

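The mitochondrial genome, left out of the comparison, had 947 back-splice reads in SW1990 over 6 junctions and 0 in HPDE. It was picked out because it carried signal in data that the comparison did not use.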

How the results depend on the processing

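Counts of calls over all junctions stayed within 1.5 times of the reported values under every alternative tried except a filter of 20 reads, with which 939 junctions were higher in SW1990. Of the 3148 calls, 2735 were of a single list and called by construction, so most alternatives could hardly move these totals. The scale mattered for junctions and hosts with reads in both. Scaled to total back-splice reads, 245 junctions were higher and 160 lower, 315 hosts were higher and 155 lower, and the median log2 fold was 0.39. The median was 0.044 with TMM and 0 with the median of ratios, which sets it so. Against RPM these scales moved every fold by 0.60, 0.25 and 0.21. The share found in the other list was 31.6% for SW1990 and 30.1% for HPDE among junctions with 20 or more reads. These scales move all folds alike by less than the call threshold, so no call could turn, but calls can end. Of 73 called list members, the total back-splice scale ended 16 lower calls and TMM and the median of ratios 6 each, while 13, 6 and 6 members within a fold of 2 became called. Leaving out a host's largest junction was added after seeing the data. It turned the log2 fold of RANBP17 to -0.53 and, where the junction was the only one in HPDE and the limit of 3 reads took its place, those of PFDN2 to 2.21, EIF3H to 1.21 and ITPR3 to 2.73. The call of MYBL2 ended, and 7 named hosts had no fold left. The exact binomial test called 1503 junctions higher and 1571 lower. Depth limits ratios with 1 to 3 reads in a library. No paired analysis was possible because each line had 1 library.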
